A study of Homo sapiens with 6 samples.

Results

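Hyaluronan synthesis and turnover was followed through 10 genes of the 58735 in the deposited count table: the synthases HAS1, HAS2 and HAS3, the precursor enzymes UAP1, UGDH, UGP2, GFPT1 and GFPT2, and the hyaluronidases HYAL1 and HYAL2. The set was picked because HAS3 was higher and UAP1 was lower after AS1842856 in these same libraries. The values of its members are therefore given as a description. Their calls in the fit across all genes are printed as well, and nothing is read from them. BT549 is a human cell line of the basal-like class of breast cancer. AS1842856 is a compound known to bind unphosphorylated FOXO1, a forkhead transcription factor, and to keep it from DNA. All libraries were made from BT549 cells harvested after 48 h: 3 libraries came from cells given the solvent DMSO and 3 from cells given AS1842856, each with replicates A, B and C. The dose was 200 nM by the sample labels and 1 μM by the methods of the study, and the difference was not resolved here. The study's methods call the replicates biological; all come from the same line, so the spread is that between cultures of BT549.

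Hyaluronan is a long unbranched sugar polymer of the extracellular matrix, made of alternating N-acetylglucosamine and glucuronic acid. HAS enzymes sit in the plasma membrane, join the nucleotide sugars UDP-GlcNAc and UDP-GlcA and extrude the growing chain, while hyaluronidases cut it into shorter pieces. UDP-GlcNAc is made by the hexosamine pathway, in which GFPT enzymes take the first committed step and UAP1 the last, and UDP-GlcA is made from UDP-glucose, which UGP2 forms and UGDH oxidizes. In breast tumours hyaluronan is abundant in the stroma and around malignant cells, which bind it through CD44.

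The promoter sequences of HAS3 and UAP1 are shown because these genes had the largest difference in each direction among the members and were the reason the set was chosen. Each is the stretch of 250 bases before an annotated RefSeq transcription start on the GRCh38.p14 assembly, read 5′ to 3′ on the plus strand. The HAS3 stretch is chr16:69107290-69107539, whose start site lies 1976 bases inside the GENCODE 29 gene. The UAP1 stretch is chr1:162561281-162561530, the nearest to the GENCODE gene start of 3 UAP1 windows in the RefSeq table.
HAS3: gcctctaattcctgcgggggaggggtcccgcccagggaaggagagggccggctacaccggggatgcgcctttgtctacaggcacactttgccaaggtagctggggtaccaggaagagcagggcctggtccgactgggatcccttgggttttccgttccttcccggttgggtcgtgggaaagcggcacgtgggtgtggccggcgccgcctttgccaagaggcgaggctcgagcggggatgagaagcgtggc
UAP1: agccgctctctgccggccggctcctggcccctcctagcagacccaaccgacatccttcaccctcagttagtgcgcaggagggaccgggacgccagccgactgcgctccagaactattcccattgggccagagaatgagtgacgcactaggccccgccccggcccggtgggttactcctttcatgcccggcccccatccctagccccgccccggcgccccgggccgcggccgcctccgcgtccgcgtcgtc

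Both stretches were rich in G and C, at 66.0% with 18 CpG steps for HAS3 and 71.2% with 26 CpG steps for UAP1. With the next 50 bases included, HAS3 held 67.0% with 25 CpG steps and UAP1 70.7% with 32. Over all promoter windows of 300 bases the medians were 58.7% and 14 CpG steps. Windows of 300 bases, these 250 bases and the 50 after the start, were searched on both strands for GTAAACA and ATAAACA, letters of the forkhead core that differ only in the first base and cannot match at the same position. RefSeq windows were matched for 9 of the 10 members, all but HAS2, with 12 windows in all, and 0 of the 12 held either motif. The UAP1 windows overlap in part, and the start site of the HYAL1 window lies 8807 bases from the GENCODE gene start. Either motif was found in 7.43% of all 35116 promoter windows of that length, GTAAACA in 3.42% and ATAAACA in 4.24%. No capitals therefore appear in the printed sequences. A search of these letters in these windows says nothing about where a factor binds.

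HAS3, which makes hyaluronan at the cell surface, was the main synthase transcript in BT549 cells and was 3.25-fold higher after AS1842856. As TMM-normalized CPM, which are counts scaled to a common library size, HAS3 (chromosome 16, 69105564 to 69118719, plus strand) stood at 104, 111 and 106 CPM in DMSO replicates A, B and C. It stood at 340.4, 349 and 352 CPM in AS1842856 replicates A, B and C. The groups were far apart, 107 ± 3.39 CPM against 347 ± 6.16 CPM (SD, n = 3), and the difference was 1.70 on the log2 scale with a standard error of 0.039. Of all genes tested, 98.05% had a lower log2 fold change, a rank from which nothing is read because HAS3 was picked for being higher. HAS3 shares 365 exon bases, 6.9% of its exons, with CHTF8 on the opposite strand, whose level was 83.1 ± 4.48 CPM in DMSO and 84.6 ± 1.87 CPM after AS1842856. Whether counting used strand is not given in the sources used here.

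HAS2 (chromosome 8, 121612116 to 121641390, minus strand), the synthase most often linked to long chains, had few reads, between 114 and 176 counts in DMSO libraries and between 403 and 516 after AS1842856. Its level was 8.02, 7.42 and 7.97 CPM in DMSO and 24.3, 22.6 and 22.6 CPM after AS1842856. Every treated library was above every DMSO library, with a log2 fold change of 1.56 ± 0.104 (SE) and a fold of 2.96. The antisense gene HAS2-AS1 shares 201 exon bases with it and held 119 counts over the 6 libraries against 1762 for HAS2.

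HAS1 (chromosome 19, 51713112 to 51723994, minus strand) was at or next to 0, with 1 count in DMSO replicate B and 0 counts in the other libraries. At the depth of these libraries, 3 counts correspond to 0.131 to 0.195 CPM, so HAS1 was not detectable above that level. HAS1 was not tested and is not listed in the FPKM tables.

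Per length, the synthase transcripts were almost wholly HAS3. FPKM, fragments scaled to gene length and library size, allows levels of different genes to be set side by side. The length used here was that of all annotated exons of a gene together, so comparisons between genes depend on the annotation. Summed HAS1, HAS2 and HAS3 were 21.9 ± 0.528 FPKM in DMSO and 70.7 ± 0.857 FPKM after AS1842856 (SD, n = 3), a ratio of 3.23. HAS3 made up 91.1%, 92.2% and 91.3% of that sum in DMSO and 91.7%, 92.4% and 92.5% after AS1842856. These shares overlapped between the groups, so the make-up of synthase transcripts was near the same while their sum was higher.

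**Figure D1:**
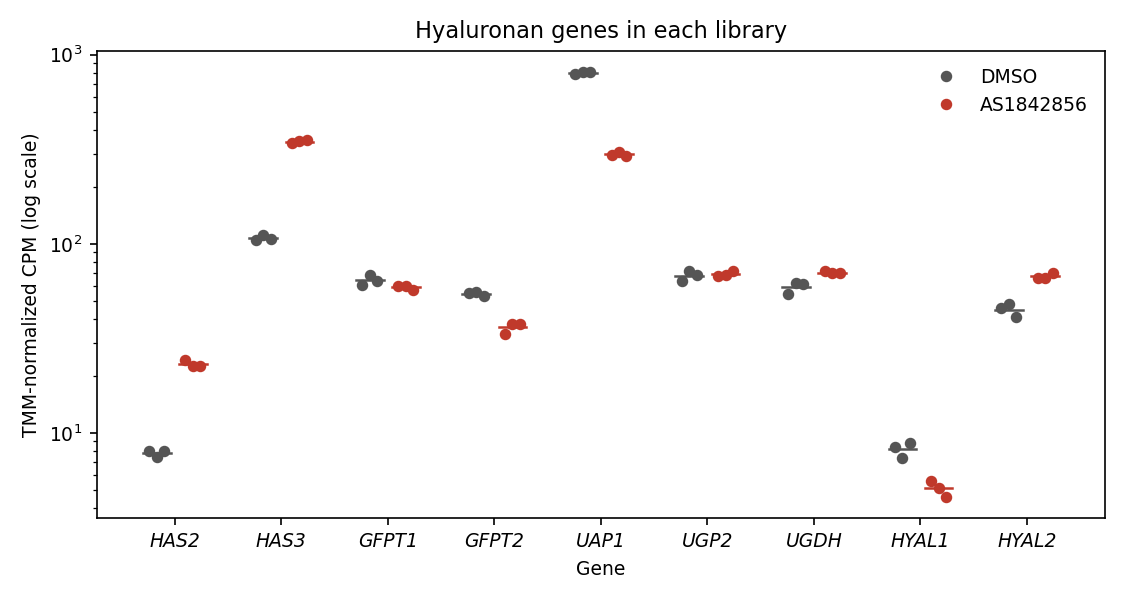
TMM-normalized CPM on a log axis for the 9 members with enough counts, with a point for each library (grey, DMSO; red, AS1842856) and a line at each group mean. HAS3 goes from 107 to 347 CPM and UAP1 from 802 to 298 CPM, while the UGP2 points of both groups lie between 63.6 and 71.7 CPM.

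Among the enzymes that make UDP-GlcNAc, UAP1 and GFPT2 were lower after AS1842856. UAP1 (chromosome 1, 162561506 to 162599842, plus strand), which joins GlcNAc-1-phosphate to UTP, was at 789, 810.2 and 807 CPM in DMSO and 296, 304 and 292 CPM after AS1842856. The 3 treated libraries lay far below the 3 DMSO libraries, with means of 298 ± 6.0 CPM and 802 ± 11.2 CPM (SD, n = 3). UAP1 was thus 2.7-fold lower, a log2 fold change of -1.43 ± 0.0347 (SE), and 3.18% of all genes tested had a lower value. UAP1 was picked for being lower, so nothing is read from that rank.

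GFPT1 and GFPT2 are the paralogous enzymes that pass an amino group from glutamine to fructose-6-phosphate and so open the hexosamine pathway. GFPT2 (chromosome 5, 180300690 to 180353387, minus strand) was at 55.2, 55.3 and 52.6 CPM in DMSO and 33.4, 37.8 and 37.6 CPM after AS1842856. The groups did not overlap, and the log2 fold change was -0.58 ± 0.0609 (SE). GFPT1 (chromosome 2, 69319769 to 69387254, minus strand) was at 60.3, 68.4 and 63.2 CPM in DMSO and 59.8, 59.5 and 57.1 CPM after AS1842856. Its groups were separated by less than 1 CPM, with a log2 fold change of -0.12 ± 0.0538 (SE). GFPT1 did not pass the threshold of an adjusted p of 0.05 used across all genes, although it passed without DMSO replicate A, at a log2 fold change of -0.16. GFPT2 made up 62.9%, 60% and 60.7% of the summed FPKM of the pair in DMSO and 50.9%, 54.1% and 54.9% after AS1842856, ranges that did not overlap. By CPM, which leaves length in, its mean share was 46% in DMSO and 38.1% after AS1842856. Which gene of the pair was higher thus depended on the length used. The summed level of GFPT1 and GFPT2 was 18.5 ± 0.582 FPKM in DMSO and 14.1 ± 0.438 FPKM after AS1842856.

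Among the members of the UDP-GlcA branch, UGP2 differed little between the groups and UGDH was somewhat higher after AS1842856. UGP2 (chromosome 2, 63840940 to 63891562, plus strand), which makes UDP-glucose, was at 63.6, 71.4 and 68.5 CPM in DMSO and 67.1, 68.5 and 71.7 CPM after AS1842856. Its groups overlapped, and the log2 fold change was 0.03 ± 0.0517 (SE). UGDH (chromosome 4, 39498755 to 39528311, minus strand), which oxidizes UDP-glucose to UDP-GlcA, was at 54.2, 62.2 and 61.4 CPM in DMSO and 71.5, 69.9 and 69.9 CPM after AS1842856. All treated libraries were above all DMSO libraries, a log2 fold change of 0.25 ± 0.0529 (SE). Within each library the FPKM of UGDH was 1.37, 1.40 and 1.44 times that of UGP2 in DMSO and 1.71, 1.64 and 1.57 times after AS1842856, so the ratios did not overlap either. The antisense gene UGDH-AS1 shares 293 exon bases with UGDH and held 85 counts over the 6 libraries against 7320 for UGDH.

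The hyaluronidases differed in opposite directions. HYAL2 (chromosome 3, 50317790 to 50322906, minus strand), a membrane-anchored enzyme that cuts long hyaluronan at the cell surface, was at 45.6, 48.1 and 40.8 CPM in DMSO and 65.6, 65.6 and 70.4 CPM after AS1842856. HYAL1 (chromosome 3, 50299889 to 50312381, minus strand), the lysosomal enzyme, was at 8.38, 7.36 and 8.83 CPM in DMSO and 5.58, 5.12 and 4.60 CPM after AS1842856. Neither gene overlapped between groups, with log2 fold changes of 0.59 ± 0.0564 (SE) for HYAL2 and -0.69 ± 0.145 (SE) for HYAL1. HYAL1 rested on 82 to 184 counts per library, which makes its value less precise. Per length, HYAL1 was 21.0% ± 2.87 of the summed FPKM of the pair in DMSO and 9.95% ± 1.18 after AS1842856 (SD, n = 3). HYAL2 shares 509 exon bases, 11.2% of its exons, with TUSC2 on the same strand, whose level was 31.3 ± 2.23 CPM in DMSO and 41.7 ± 1.91 CPM after AS1842856. How reads in that stretch were assigned is not given in the sources used here, and the part of TUSC2 in the HYAL2 value was not tested.

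Set against each other within a library, UAP1 and HAS3 exchanged places in read counts. The ratio of UAP1 counts to HAS3 counts was 7.59, 7.32 and 7.63 in DMSO and 0.870, 0.872 and 0.829 after AS1842856, a ratio that does not depend on how libraries are scaled. Per length, UAP1 remained the higher of the pair, at 11.6 times the FPKM of HAS3 on average in DMSO and 1.32 times after AS1842856. Of all counts on the 10 members, UAP1 held 65.3% to 66.4% in DMSO libraries and 29.9% to 31.0% after AS1842856, and HAS3 went from 8.70% to 8.91% up to 35.3% to 36.0%. The members together held 0.118% to 0.125% of all counts in DMSO and 0.0965% to 0.0975% after AS1842856.

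In order of mean FPKM, the DMSO libraries gave UAP1 at 232, HAS3 at 20.1, UGDH at 14.6, GFPT2 at 11.3, UGP2 at 10.4, HYAL2 at 9.80, GFPT1 at 7.17, HYAL1 at 2.60 and HAS2 at 1.85. UGP2 and HYAL2 were the only neighbours in that order whose libraries overlapped. After AS1842856 the order was UAP1 at 86.0, HAS3 at 65.2, UGDH at 17.3, HYAL2 at 14.7, UGP2 at 10.6, GFPT2 at 7.54, GFPT1 at 6.59, HAS2 at 5.49 and HYAL1 at 1.62, and no neighbours overlapped. UAP1, HAS3 and UGDH kept the top places, while HYAL2 moved above UGP2 and GFPT2, and HAS2 moved above HYAL1.

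Of the 10 members, 9 had enough counts for the fit across all genes, edgeR's quasi-likelihood test with Benjamini-Hochberg adjustment over 14338 genes. At an adjusted p of 0.05, 4 members were higher (HAS2, HAS3, UGDH and HYAL2), 3 were lower (UAP1, GFPT2 and HYAL1) and 2 were not called (GFPT1 and UGP2). Across all genes tested 56.0% were called, 27.6% higher and 28.4% lower. Groups did not overlap for 8 of the 9 members, against 59.9% of all genes tested. The members were chosen on this comparison, so nothing is read from these counts. The median log2 fold change of the 9 members was 0.03, against 0 over all genes tested.

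**Figure D2:**
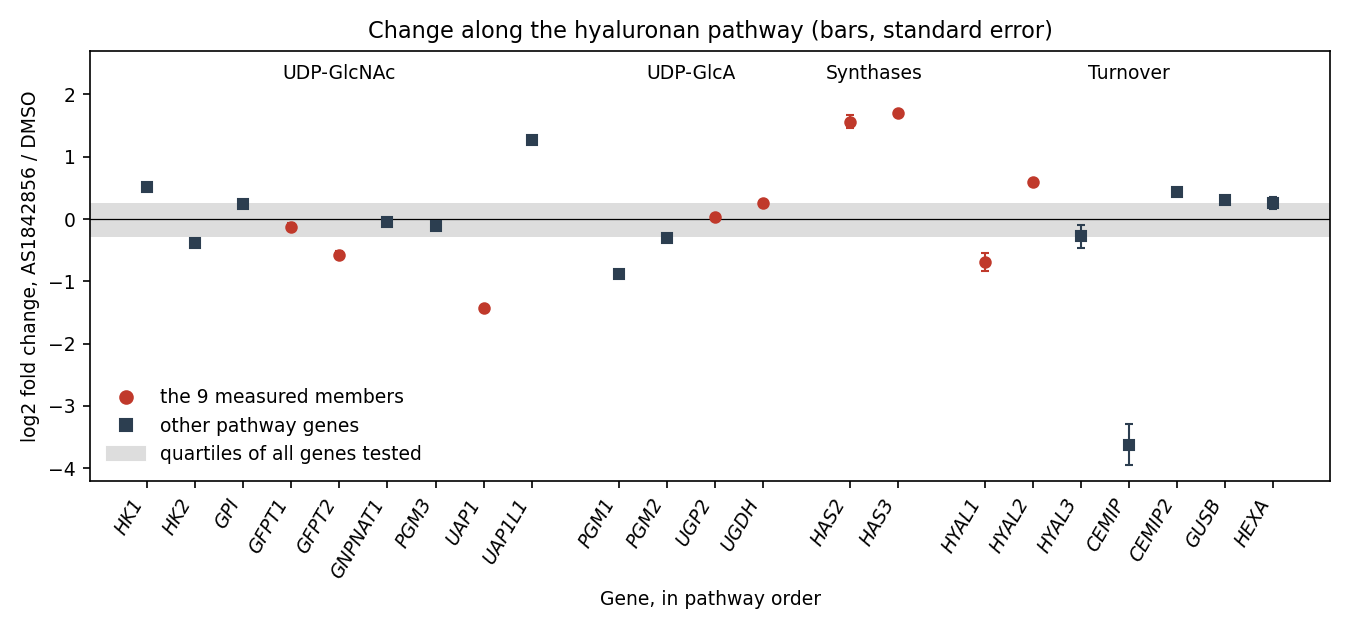
log2 fold change (AS1842856 over DMSO) with standard error bars for the 9 measured members (red circles) and other genes of the pathway (dark squares), placed in pathway order, over a grey band for the quartiles of all genes tested. HAS2 and HAS3 stand at 1.56 and 1.70, UAP1 at -1.43 beside its paralog UAP1L1 at 1.26, and CEMIP lies lowest at -3.62.

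UAP1L1, the close relative of UAP1 whose enzyme activity is less well defined, went the opposite way to UAP1. It was at 45.1, 48.9 and 47.4 CPM in DMSO and 107, 112 and 119 CPM after AS1842856. The groups did not overlap, and UAP1L1 rose by 1.26 ± 0.0505 (SE) on the log2 scale (adjusted p = 1.06e-67). Its share of the summed UAP1 and UAP1L1 FPKM was 3.58%, 3.78% and 3.68% in DMSO and 19.1%, 19.3% and 20.9% after AS1842856. The sum of the pair was 241 ± 3.30 FPKM in DMSO and 107 ± 1.53 FPKM after AS1842856, a ratio of 0.445.

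**Figure D3:**
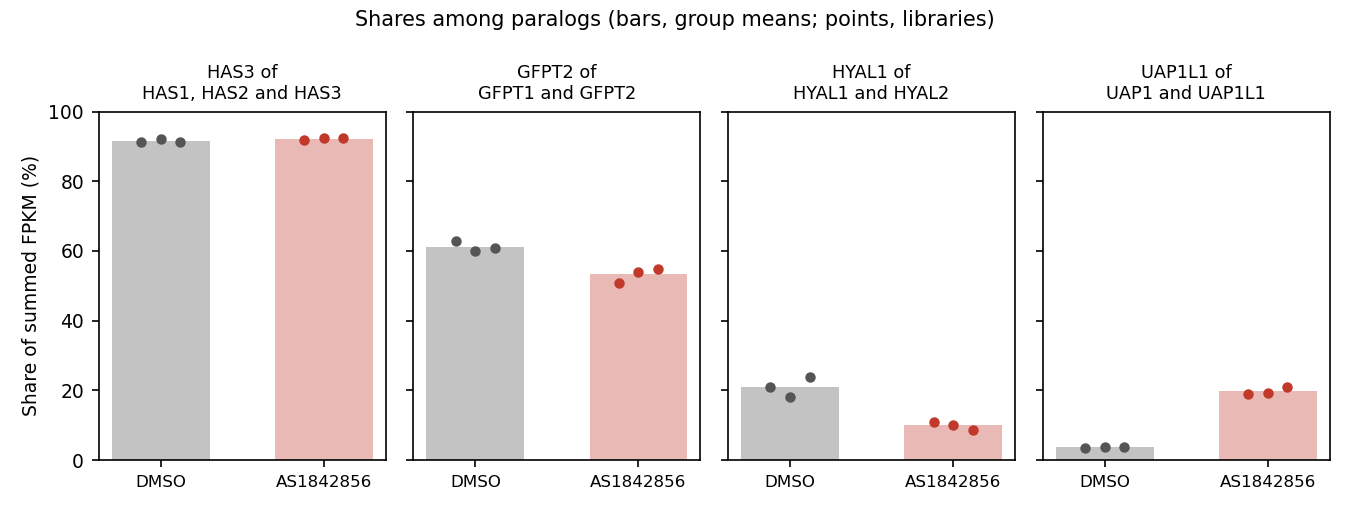
Share (%) of the summed FPKM of related genes held by HAS3, GFPT2, HYAL1 and UAP1L1, with bars at the group means from 0 and a point for each library. The HAS3 share is 91.6% in DMSO and 92.2% after AS1842856 with overlapping points, whereas HYAL1 goes from 21.0% to 9.95% and UAP1L1 from 3.68% to 19.8%.

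The other genes of UDP-GlcNAc supply and salvage went both ways. Of 13 genes in the list, 12 were tested, 5 rose, 4 fell and 3 did not pass, with a median log2 fold change of 0.03. Over all genes tested, 27.6% were higher and 28.4% lower. With DESeq2 and with limma on FPKM, 3 fell. HK1, the hexokinase that phosphorylates glucose in most cells, rose from 236 ± 2.53 to 338 ± 5.48 CPM (SD, n = 3; log2 fold change 0.52, adjusted p = 7.33e-33), and its inducible relative HK2 fell from 79.9 to 61.0 CPM (-0.39, adjusted p = 2.3e-12). GPI, which makes fructose-6-phosphate, rose by 0.24 on the log2 scale (adjusted p = 2.78e-10). The middle steps between GFPT and UAP1 changed little. GNPNAT1 was at -0.04 (adjusted p = 0.529), and PGM3, counted among the 4 that fell, was at -0.11 (adjusted p = 0.0343). The salvage kinase NAGK (0.25, adjusted p = 6.83e-05) and the deacetylase AMDHD2 (0.63, adjusted p = 5.11e-12) rose. OGT, which uses UDP-GlcNAc to add GlcNAc to proteins, and OGA, which removes it again, fell by 0.17 (adjusted p = 2.7e-05) and 0.36 (adjusted p = 2.56e-17).

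Among 7 genes listed under UDP-sugar branches and Golgi transport, 1 rose, 3 fell and 3 did not pass, with a median of -0.11. The shares over all genes tested were 27.6% higher and 28.4% lower. PGM1, which interconverts glucose-6-phosphate and glucose-1-phosphate ahead of UGP2, was at 64.4, 64.8 and 61.4 CPM in DMSO and 34.3, 34.2 and 35.2 CPM after AS1842856. Its groups were well apart, and PGM1 fell by 0.88 on the log2 scale (adjusted p = 8.85e-35). PGM2, a related mutase that acts mainly on pentose phosphates, fell by 0.30 (adjusted p = 4.3e-07). The nucleotide-sugar transporter SLC35D1 fell by 0.27 (adjusted p = 0.000142) and SLC35D2 rose by 0.46 (adjusted p = 0.000641).

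Beyond HYAL1 and HYAL2, 9 genes were listed for hyaluronan turnover, of which 6 were tested, 4 rose, 1 fell and 1 did not pass, with a median of 0.22. For comparison, 27.6% of all genes tested were higher and 28.4% lower. CEMIP, a secreted or membrane protein needed for hyaluronan breakdown in fibroblasts, had 86, 74 and 70 counts in DMSO and 2, 10 and 7 counts after AS1842856. Its level went from 4.17 ± 0.568 CPM to 0.317 ± 0.172 CPM (SD, n = 3), a fall of 3.62 on the log2 scale with a standard error of 0.327 (adjusted p = 2.5e-22). Its paralog CEMIP2, a membrane protein reported to be a hyaluronidase, was far more abundant and rose from 96.4 ± 1.18 to 129.9 ± 3.92 CPM (0.43, adjusted p = 9.62e-19). Lysosomal exoglycosidases remove the terminal sugars of the fragments, and of these GUSB rose by 0.31 (adjusted p = 1.35e-07) and HEXA by 0.25 (adjusted p = 0.0217). HYAL3 stood at -0.28 (adjusted p = 0.19), and HYAL4, SPAM1 and HYAL6P had 0 CPM in both groups. With limma on log2(FPKM + 1), 3 of these genes were called, since the mean of CEMIP lay under the minimum of 0.5 FPKM and HEXA had an adjusted p of 0.135.

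Of 8 hyaluronan receptors, 3 were tested, 0 rose, 2 fell and 1 did not pass, where 27.6% of all genes tested were higher and 28.4% lower. CD44, the main cell-surface receptor of hyaluronan, was at 896, 904 and 892 CPM in DMSO and 649, 672 and 645 CPM after AS1842856. The groups did not overlap, and CD44 fell by 0.45 on the log2 scale with a standard error of 0.0331 (adjusted p = 6.18e-31). LAYN, a C-type lectin that binds hyaluronan, fell by 0.34 (adjusted p = 6.8e-08), whereas HMMR, an intracellular and surface protein best known in mitosis, was at 75.6 ± 2.93 and 74.6 ± 2.43 CPM (SD, n = 3; adjusted p = 0.802). LYVE1, STAB1, STAB2, TLR2 and TLR4 had means under 0.5 CPM in both groups and were not tested.

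Of 18 hyaluronan-binding matrix proteins, only VCAN and PTX3 had enough counts. VCAN, the large proteoglycan versican that is laid along hyaluronan chains, was at 112, 104 and 104 CPM in DMSO and 383, 424 and 389 CPM after AS1842856. The groups were far apart, with a rise of 1.90 on the log2 scale (SE 0.0393, adjusted p = 6.55e-120). PTX3, which takes part in cross-linking hyaluronan in matrix, was at 5.65, 8.20 and 6.67 CPM in DMSO and 1.74, 2.28 and 2.02 CPM after AS1842856. PTX3 fell by 1.73 (SE 0.19, adjusted p = 1.96e-16), and by 1.14 on the log2(FPKM + 1) scale. ACAN, HAPLN1 and TNFAIP6, which are common in hyaluronan-rich cartilage or inflamed matrix, had 0 CPM in both groups.

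**Figure D4:**
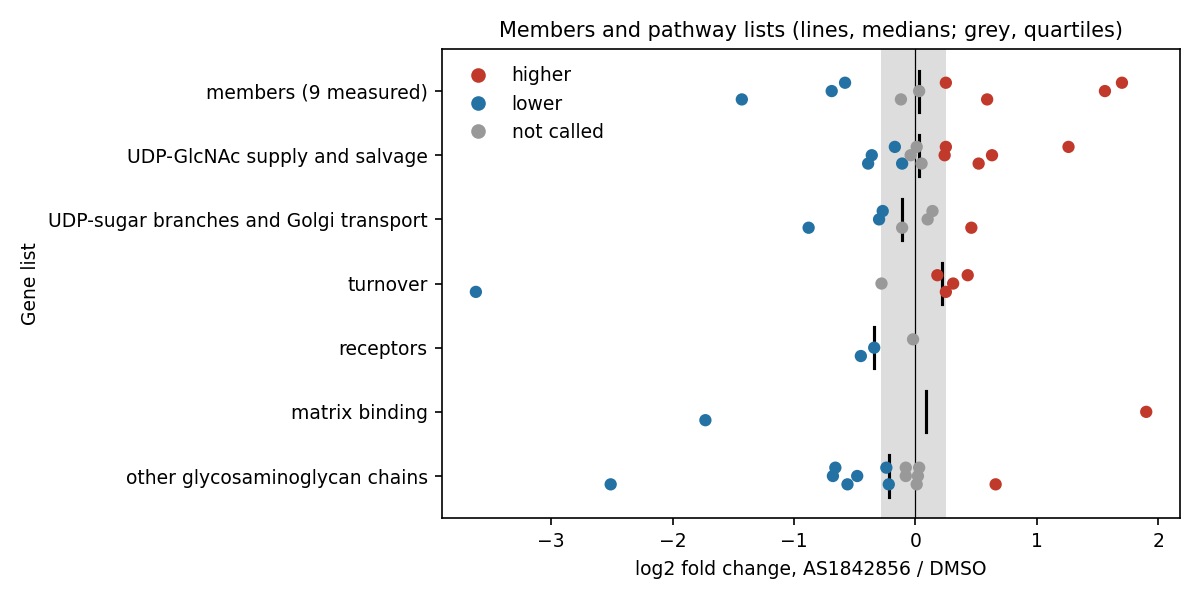
log2 fold change (AS1842856 over DMSO) of each tested gene of the members and of 6 lists of related genes, coloured by edgeR call (red, higher; blue, lower; grey, not called), with a black line at each median and a grey band for the quartiles of all genes tested. Medians run from -0.34 for the 3 receptors to 0.22 for the 6 turnover genes, and the members spread from -1.43 to 1.70 around a median of 0.03.

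The genes whose levels followed HAS3 and UAP1 most closely over the 6 libraries were found by the root mean square distance between log2 CPM values centred on their mean, among 13023 genes with a mean of at least 1 CPM. For HAS3 these were CXADR, a cell adhesion receptor, at a distance of 0.0115, PHLDA1 at 0.0344 and CCND1, cyclin D1, at 0.04. The median distance over all genes was 0.859. CXADR stood at 26.3 CPM in DMSO and 85.4 CPM after AS1842856, a log2 fold change of 1.70. For UAP1 they were ANXA1, annexin A1, at 0.0166, the elongation factor ELL2 at 0.0298 and FRMD6 at 0.032, with a median of 0.728 over all genes. ANXA1 stood at 404 CPM in DMSO and 150 CPM after AS1842856. The points are 6 libraries in 2 groups, so genes with a like difference between the groups come out close.

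Library totals lay between 15289500 and 22981832 counts, and no pair of replicates agreed within sampling noise (chi-square over degrees of freedom of 2.37 to 3.29). The cells carried markers of a mesenchymal basal B line, with all 5 (VIM, CDH2, SPARC, AXL and FN1) expressed, while ESR1, PGR, CDH1 and EPCAM had at most 8 counts in any library. The mesenchymal markers moved with treatment by edgeR's test, which called 56.0% of all genes tested. Of these markers, 4 fell (VIM by 0.34, CDH2 by 0.19, SPARC by 0.47 and AXL by 1.65 on the log2 scale) and FN1 rose by 1.13. Their summed level was 3418 to 3545 CPM in DMSO and 3102 to 3147 CPM after AS1842856. GATA3, a luminal marker, was at 50.9 CPM in DMSO and 61.7 CPM after AS1842856, so 1 of 5 luminal markers was well expressed. It was called higher by edgeR's test (log2 fold change 0.28, adjusted p = 3.21e-06). Of 4 blood and endothelial markers, CD3E and CDH5 had 0 counts, PECAM1 had 1 count in 1 library and PTPRC was at 1.15 CPM in DMSO and 3.16 CPM after AS1842856. PTPRC was also called higher by edgeR's test (log2 fold change 1.48, adjusted p = 4.99e-07). The summed level of these 4 markers was 0.700 to 1.56 CPM in DMSO and 2.7 to 3.59 CPM after AS1842856. The mitochondrial share was 2.83% to 3.02% of counts in DMSO and 2.65% to 2.74% after AS1842856. The part of these markers and of the mitochondrial share in the values above was not tested. In RNA from whole cultures, fewer cells that express a gene and less RNA per cell cannot be told apart.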

How the data were processed

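RNA-Seq was measured in 6 BT549 libraries, 3 per group, assigned by the treatment label, with replicate letters from the labels. The authors deposited raw counts per gene, without normalization, and FPKM per library. Their methods name STAR, and the submitters' processing notes name CASAVA, Bowtie 0.12.2 and GRCh38/hg38; the counting tool, the annotation and the use of strand are not given in the sources used here. All 58735 gene identifiers matched GENCODE 29 (Ensembl 94), from which symbols and positions were taken, and the length implied by counts and FPKM was 1.005 times the GENCODE exon length.

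The counts were fitted with edgeR 4.0.16 (R 4.3.3): filterByExpr (minimum count 10, minimum total 15), which left 14338 genes and removed 13170 genes with a count, TMM scaling, glmQLFit with robust estimation and glmQLFTest without a block. Benjamini-Hochberg adjustment covered all genes tested, with a threshold of 0.05. The standard error is the log2 fold change divided by the square root of F. CPM were TMM-scaled, and shares between genes used the deposited FPKM. An exact permutation test of 3 against 3 cannot go below a two-sided p of 0.1, so none was used. The floor of 3 counts reflects counting error alone, because reads that carry no molecular identifier can be copies of the same molecule. The common biological coefficient of variation was 0.0374. On simulated counts at the depths of these libraries (14329 genes), edgeR recovered 80% of genes changed by 0.5 and 96% of those changed by 1 on the log2 scale, with 3.3% false calls. The spread was set in advance, and 100 genes of each size, picked above a minimum count, were changed. In the data 56.0% of genes were called, so these rates need not hold there.

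Named genes were all members, CD44 and, of each list, up to 5 called genes with an absolute log2 fold change of at least 1 and a mean of at least 1 CPM, filled up to 3 by mean FPKM where fewer than 3 passed, and the 3 genes most like HAS3 and UAP1. Other list genes, and the UAP1L1 share, were named after their values were seen. The values of 1 gene of the turnover list are not reported here. The members and lists were chosen with earlier results of these data known, and the lists were written from general knowledge. Alternatives were DESeq2 1.42.0, edgeR with size factors from DESeq2 or with library totals alone, edgeR without a filter or with a minimum mean of 50 counts, the replicate letter as a block, and each library left out. FPKM with a minimum mean of 0.5 were fitted by limma 3.58.1 (trend) after adding 1 or 0.1 and taking log2. Promoters came from RefSeq tables (GRCh38.p14).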

Additional observations from a re-analysis of the deposited data

How the results depend on the processing

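Of 126 fold changes of the members under the alternatives, 122 kept their direction and their side of the threshold, 3 passed it newly and 1 changed sign. The set was picked on this comparison in these libraries, so the tally is a description and does not test the members. GFPT1 passed at -0.12 with library totals alone (edgeR adjusted p = 0.0479), at -0.12 with a mean of at least 50 counts (0.0397) and at -0.16 without DMSO replicate A (0.0139), over a range of -0.16 to -0.07 with each library left out. UGP2 was at -0.02 without DMSO replicate A, over a range of -0.02 to 0.06. HMMR was at 0.01 without DMSO replicate B and 0 without AS1842856 replicate C (range -0.04 to 0.01), and B3GALT6 at 0 without DMSO replicate C and -0.01 without AS1842856 replicate C (range -0.01 to 0.05). On log2(FPKM + 1) HAS2 was at 1.19, which understates low genes. For both limma fits, 3 turnover genes were called in place of 5, since CEMIP fell under the FPKM minimum and HEXA missed the threshold. The turnover count was 4 with no filter, with DESeq2, without DMSO replicate A and without AS1842856 replicate C (3 higher and 1 lower in each), and 4 with a mean of at least 50 counts (4 higher and 0 lower). Of the UDP-GlcNAc supply and salvage genes, 3 in place of 4 were lower with DESeq2, both limma fits, without DMSO replicate B and without AS1842856 replicate C. Of the genes for other glycosaminoglycan chains, 6 in place of 7 were lower with DESeq2, both limma fits and without DMSO replicate A or B or AS1842856 replicate A or B, and 8 without DMSO replicate C. With CPM in place of FPKM, which leaves gene length in the shares, HAS3 was 93.2% in DMSO and 93.7% after AS1842856, GFPT2 46% and 38.1%, HYAL1 15.5% and 7.07%, and UAP1L1, a share added after seeing the data, 5.55% and 27.4%. Over all genes, 6660 to 8030 were called against 8029, 7427 to 7678 with a library left out and 6791 with DESeq2. The deviations of same-lettered libraries correlated at 0.042, -0.012 and -0.003, and those of differently lettered libraries at -0.028 to 0.03. Such values give no sign of pairing by letter but cannot show how the cultures were set up. With the replicate block 7862 genes and 7 members were called. Depth limits HAS1, which was not tested, and the precision of HAS2, HYAL1 and CEMIP.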

Other observations

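Genes that build the other glycosaminoglycan chains, which draw on the same UDP-GlcA and, for heparan sulfate, UDP-GlcNAc, were listed as a comparison. Of 16 genes, 13 were tested, 1 rose, 7 fell and 5 did not pass in edgeR's quasi-likelihood test (Benjamini-Hochberg), against 27.6% higher and 28.4% lower over all genes tested, and the median log2 fold change was -0.22. With DESeq2 and with limma on FPKM, 6 fell. CSGALNACT1, which starts the chondroitin chain, was at 14.8, 13.7 and 12.5 CPM in DMSO and 2.7, 2.02 and 2.58 CPM after AS1842856. Its groups were far apart, and CSGALNACT1 fell by 2.51 on the log2 scale with a standard error of 0.15 (adjusted p = 3.84e-41), and by 1.17 on the log2(FPKM + 1) scale. The related CSGALNACT2 fell by 0.24 (adjusted p = 0.000178).

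The heparan sulfate polymerases EXT1 and EXT2 fell by 0.68 (adjusted p = 3.81e-44) and 0.56 (adjusted p = 1.09e-18), and EXTL3, which starts the heparan sulfate chain, by 0.48 (adjusted p = 5.14e-19). In the linker shared by these chains, XYLT2, which adds the xylose, fell by 0.66 (adjusted p = 1.85e-11), while B3GAT3, which adds the glucuronic acid, rose by 0.66 (adjusted p = 4.07e-31). B3GALT6 was at 101 and 103 CPM and the chondroitin polymerizing factor CHPF at 123 and 115 CPM in DMSO and after AS1842856, with adjusted p = 0.696 and 0.084. XYLT1 had 0 CPM in both groups.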
